A study of Mus musculus with 5 samples.

Results

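The 10 genes described here encode the core of transforming growth factor beta (TGF-beta) signaling outside the cell nucleus: the ligands Tgfb1, Tgfb2 and Tgfb3, the receptors Tgfbr1, Tgfbr2 and Tgfbr3, and the latent TGF-beta binding proteins Ltbp1, Ltbp2, Ltbp3 and Ltbp4. They were chosen by gene name from the deposited count table. All 10 were found among the 28666 genes listed there, and all 10 had enough counts to be among the 17013 genes tested. RNA came from whole uteri of ICR females aged 6 to 8 weeks, taken 3.5 days after caging by the sample labels. The paper's methods count the time of collection from mating instead, so these times cannot be compared directly. The aged-SP group (n = 2, replicates 1 and 4) had been caged with aged males and the young-SP group (n = 3, replicates 1, 2 and 4) with young males. All males were vasectomized C57BL/6 mice, so that every female received seminal plasma (SP) without sperm, and no female carried embryos. The question was whether the age of the male that supplied the SP was accompanied by a different uterine transcriptome. Nothing in the sources used here says whether a library held the RNA of a single female, and p-values measure the spread between these 5 libraries only.

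TGF-beta is made as a precursor whose propeptide stays wrapped around the mature ligand and keeps it latent. In the endoplasmic reticulum a latent TGF-beta binding protein (LTBP) is coupled to this complex, and after secretion the LTBP ties it to fibrillin and fibronectin in the matrix, from which integrins, proteases or thrombospondin can free the ligand. Free ligand is bound by the type II receptor (Tgfbr2), which then activates the type I receptor (Tgfbr1), and betaglycan (Tgfbr3) presents ligand to the pair, above all TGF-beta2. In the uterus the pathway is known for its part in stromal and matrix remodeling and in immune tolerance, and seminal plasma itself is a rich source of TGF-beta protein, which RNA of the uterus does not measure.

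The libraries held between 15071914 and 16728601 counts. CPM below are counts put on the same scale across libraries. In a principal component analysis of the 500 genes that varied most in log2 CPM, young-SP replicate 1 stood apart from its group: it lay at -9.43 on the first principal component (66.2% of the variance), against 41.9 and 36.6 for young-SP replicates 2 and 4, and -43.7 and -25.5 for aged-SP replicates 1 and 4. Where a call or a group difference turned on it, the value without it is given as well. Smooth muscle, stromal and epithelial markers were abundant in every library. Markers of vagina and cervix summed to at most 4.90 CPM and those of adipose tissue to at most 1.80 CPM in any library. Mitochondrial genes took between 3.55% and 3.63% of the counts in the aged-SP libraries and between 4.01% and 4.45% in the young-SP libraries.

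In the quasi-likelihood test of edgeR, with p-values adjusted by Benjamini-Hochberg over all tested genes, 0 of the 10 genes passed the call used here, an adjusted p under 0.05 with an absolute log2 fold change over 1 (background: 0.147% of tested genes), and DESeq2 and limma-voom called 0 as well. A positive log2 fold change means a higher level after mating with aged males. At an unadjusted p under 0.05 there were 3 of the 10 (Tgfb3, Ltbp1 and Tgfbr3), all higher in the aged-SP group, where 9.62% of tested genes were higher and 9.36% lower at that level. At an adjusted p under 0.10 there were 2 of the 10, Tgfb3 and Ltbp1, against 3.01% of tested genes. Without the fold threshold, DESeq2's Wald test passed 2 of the 10, Tgfb3 and Ltbp1, at an adjusted p under 0.05, against 7.58% of the genes it adjusted. The aged-SP libraries lay above all young-SP libraries in 6 of the 10 genes and below them in 0, while 19.5% of all tested genes were higher and 19.3% lower without overlap (38.8% together). The median log2 fold change was 0.30 over the 10 genes and 0.0072 over all tested genes. Without young-SP replicate 1, edgeR gave an adjusted p under 0.05 for 4 of the 10 (Tgfb3, Tgfbr1, Ltbp1 and Ltbp2), against 4.81% of tested genes, and 1 of them, Ltbp2, also passed the fold threshold, against 3.45%. In that fit 5 of the 10 had an unadjusted p under 0.05, against 22.7% of tested genes. These were the same 4, all higher in the aged-SP group, and Ltbp4, which was lower. Tgfbr3 was no longer among them (unadjusted p = 0.0519 by edgeR).

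**Figure D1:**
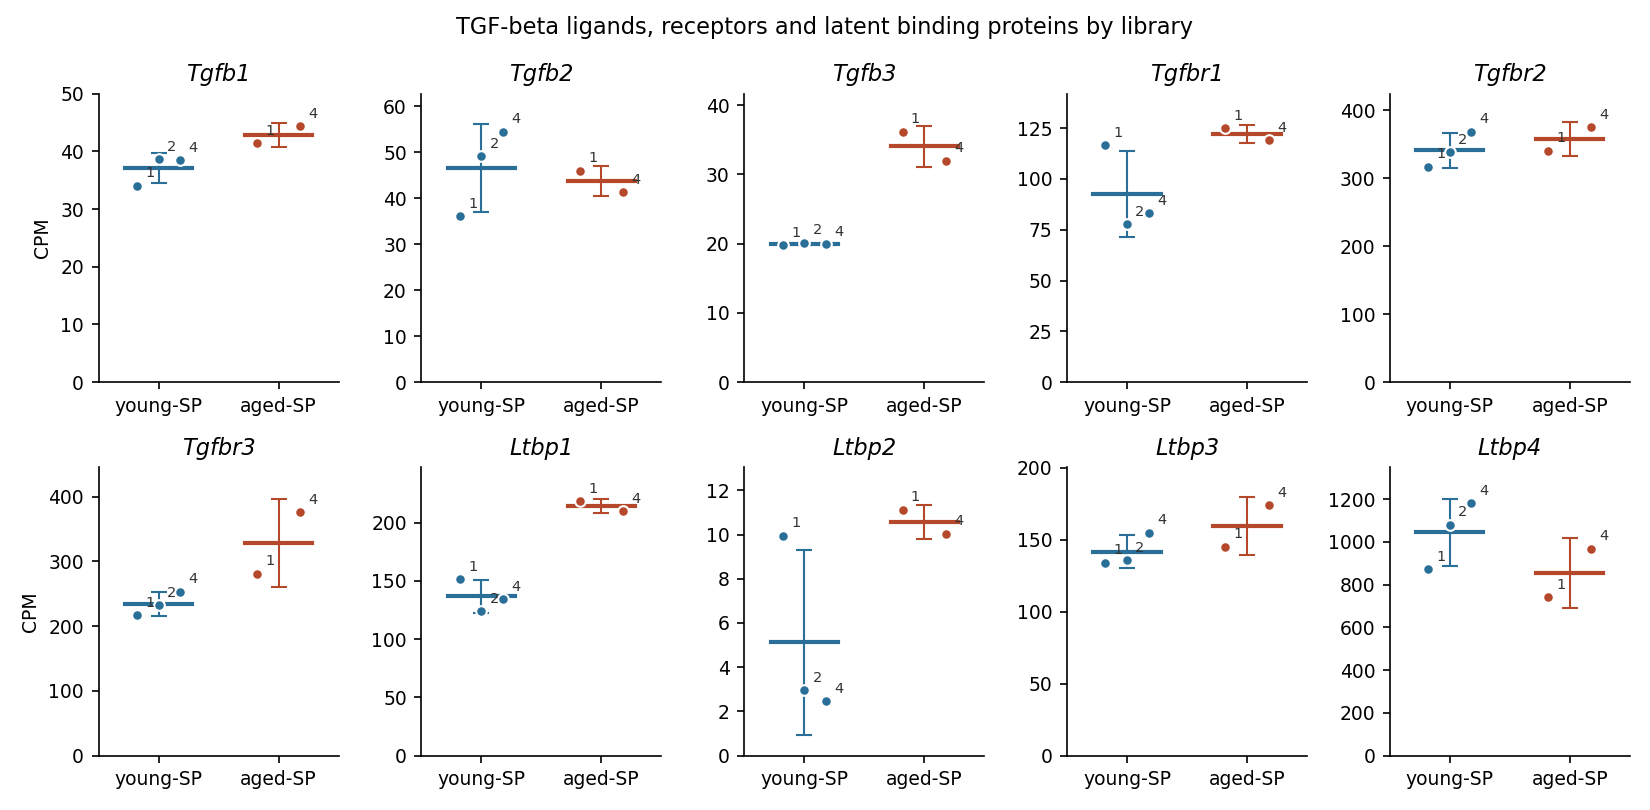
Level of each gene in CPM (vertical axis, from 0) in the young-SP (blue) and aged-SP (red) libraries; points are libraries with their replicate number, and lines and bars are the mean and SD of n = 3 and n = 2. The groups do not overlap in 6 panels, and in the Ltbp2 and Tgfbr1 panels young-SP replicate 1 lies close to the aged-SP libraries.

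Levels of different genes were compared in FPKM, which divides by gene length. Ltbp4 was the most abundant of the 10 at a mean of 149.7 FPKM over the 5 libraries (range 113 to 182), clear of all the others. Tgfbr2 (42.4 FPKM, range 38.4 to 45.7), Tgfbr3 (41.5 FPKM, range 33.0 to 57.4) and Ltbp3 (28.6 FPKM, range 25.7 to 33.4) followed, and each overlapped its neighbour in this order. Ltbp1 (16.0 FPKM, range 12.1 to 20.6) and Tgfbr1 (15.9 FPKM, range 12.2 to 18.9) were not separable from each other. The ligands formed the next level, with Tgfb2 at 7.83 FPKM, Tgfb1 at 7.80 FPKM and Tgfb3 at 7.54 FPKM, and their ranges overlapped. Ltbp2 was lowest, at 0.889 FPKM (range 0.300 to 1.34). By the deposited FPKM, the RNA of receptors and of most LTBPs thus exceeded that of any ligand in each of the 5 libraries. These orders rest on the gene lengths behind that FPKM. For Tgfb1 this length was 5042 bases, against 2175 in its longest coding transcript in GENCODE M21. The lengths were 10480 and 6671 for Ltbp1, and 6534 and 5756 for Tgfbr1. Levels with transcript lengths were not computed, and the order of genes may differ with them.

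Of the ligands, Tgfb3 differed most between the groups. This isoform, known for its part in palate fusion, lies on chromosome 12 (86056745 to 86079041). It was counted 598 and 500 times in aged-SP replicates 1 and 4, and 316, 341 and 298 times in young-SP replicates 1, 2 and 4. After scaling this was 36.2 and 32.0 CPM against 19.8, 20.2 and 19.9 CPM. Both aged-SP libraries lay above all young-SP libraries, and the young-SP libraries, replicate 1 included, differed little from each other. The log2 fold change was 0.77 (standard error 0.11, 95% interval 0.49 to 1.05). Its adjusted p was 0.0734 by edgeR, which misses the threshold, and 0.000120 by DESeq2. Over the alternatives the adjusted p ran from 0.000120 to 0.271 and the log2 fold change from 0.68 to 0.86 with a library left out. In GENCODE M21, 7.6% of the exon bases of Tgfb3 are shared with Gm48008 and 4.82% with Gm37804, both on the opposite strand, and the strand setting of the authors' counting is not given in the sources used here.

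Tgfb1, the isoform best known for control of immune cells, lies on chromosome 7 (25687002 to 25705077) and shares no exon base with another gene. It stood at 41.4 and 44.3 CPM in aged-SP replicates 1 and 4, and at 34.0, 38.6 and 38.5 CPM in young-SP replicates 1, 2 and 4. The groups did not overlap, but the log2 fold change of 0.21 (standard error 0.10, 95% interval -0.05 to 0.47) did not pass (adjusted p = 0.346 by edgeR). Tgfb2, on chromosome 1 (186622792 to 186705989), is an isoform known for epithelial and mesenchymal exchange in development. It stood at 45.9 and 41.3 CPM in the aged-SP libraries and at 36.0, 49.1 and 54.5 CPM in young-SP replicates 1, 2 and 4. The aged-SP libraries thus lay inside the young-SP range, and young-SP replicate 1 was the lowest of the 5. The log2 fold change was -0.09 (95% interval -0.57 to 0.38, adjusted p = 0.828 by edgeR), and it was 0.027 without young-SP replicate 4. Leaving out replicate 1 of that group gave -0.26. The antisense gene Gm29491 shares 2.14% of the exon bases of Tgfb2.

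The upstream sequences of Tgfb1 and Tgfb2 are printed because these ligand genes begin with different elements, although their deposited FPKM overlapped. They are RefSeq sequences on GRCm38.p6, 250 bases before to 50 after the start, in the direction of the gene, at chr7:25686752-25687051 (plus strand) and chr1:186705940-186706239 (minus strand). Capitals mark, on either strand, the Smad element CAGACA, the GC box GGGCGG and the TATA box TATAAA, which overlapped no match of another of these motifs here.
Tgfb1: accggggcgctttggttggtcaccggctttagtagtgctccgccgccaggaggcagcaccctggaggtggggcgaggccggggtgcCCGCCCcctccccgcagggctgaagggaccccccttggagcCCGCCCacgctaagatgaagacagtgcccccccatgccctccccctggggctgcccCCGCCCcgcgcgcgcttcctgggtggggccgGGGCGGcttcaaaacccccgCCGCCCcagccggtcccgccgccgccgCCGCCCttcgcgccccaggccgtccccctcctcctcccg
Tgfb2: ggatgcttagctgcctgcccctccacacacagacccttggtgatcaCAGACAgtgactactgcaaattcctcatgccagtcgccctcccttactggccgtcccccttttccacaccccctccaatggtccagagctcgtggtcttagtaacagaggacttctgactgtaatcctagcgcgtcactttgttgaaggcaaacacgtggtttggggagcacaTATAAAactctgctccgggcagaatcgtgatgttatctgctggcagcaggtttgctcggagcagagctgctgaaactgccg
The Tgfb1 sequence held 6 matches of the GC box, 30 CG pairs and no match of the others. That of Tgfb2 held 1 match of the Smad element, 1 of the TATA box, which began 31 bases before the start, and 10 CG pairs. Of all 32851 promoter sequences of the same length, 35.7% hold the GC box, 21.0% the Smad element and 13.6% the TATA box, and the median number of CG pairs is 7. The table matched 8 of the 10 genes, and Tgfb3 and Tgfbr3 are named only.

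By the deposited FPKM, the order of the ligands was not the same in the groups. Tgfb3 was the ligand with the highest FPKM in both aged-SP libraries and the one with the lowest in all 3 young-SP libraries. This order, the shares and the summed level depend on the gene lengths used. For Tgfb1 that length was 5042 bases, against 2175 in its longest coding transcript, and for Tgfb3 both were 3383. The order and shares were not computed with transcript lengths. The Tgfb3 share of the summed ligand FPKM was 39.8% and 37.2% in aged-SP replicates 1 and 4, and 31.1%, 27.0% and 25.6% in young-SP replicates 1, 2 and 4. The share of Tgfb2 was 29.6% and 28.1% in the aged-SP libraries and 33.1%, 38.4% and 41.0% in the young-SP libraries. Neither share overlapped between the groups, with differences of 10.6 and -8.66 percentage points, and p = 0.2 in each case in the two-sided exact permutation test, the smallest that 2 against 3 libraries allow. Without young-SP replicate 1 these differences were 12.2 and -10.9 percentage points. The share of Tgfb1 overlapped (32.6% ± 2.85, SD, n = 2, and 34.6% ± 1.28, SD, n = 3; exact p = 0.4). The summed ligand level was 26.5 and 25.3 FPKM in the aged-SP libraries and 18.7, 22.6 and 22.8 FPKM in the young-SP libraries (exact p = 0.2).

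**Figure D2:**
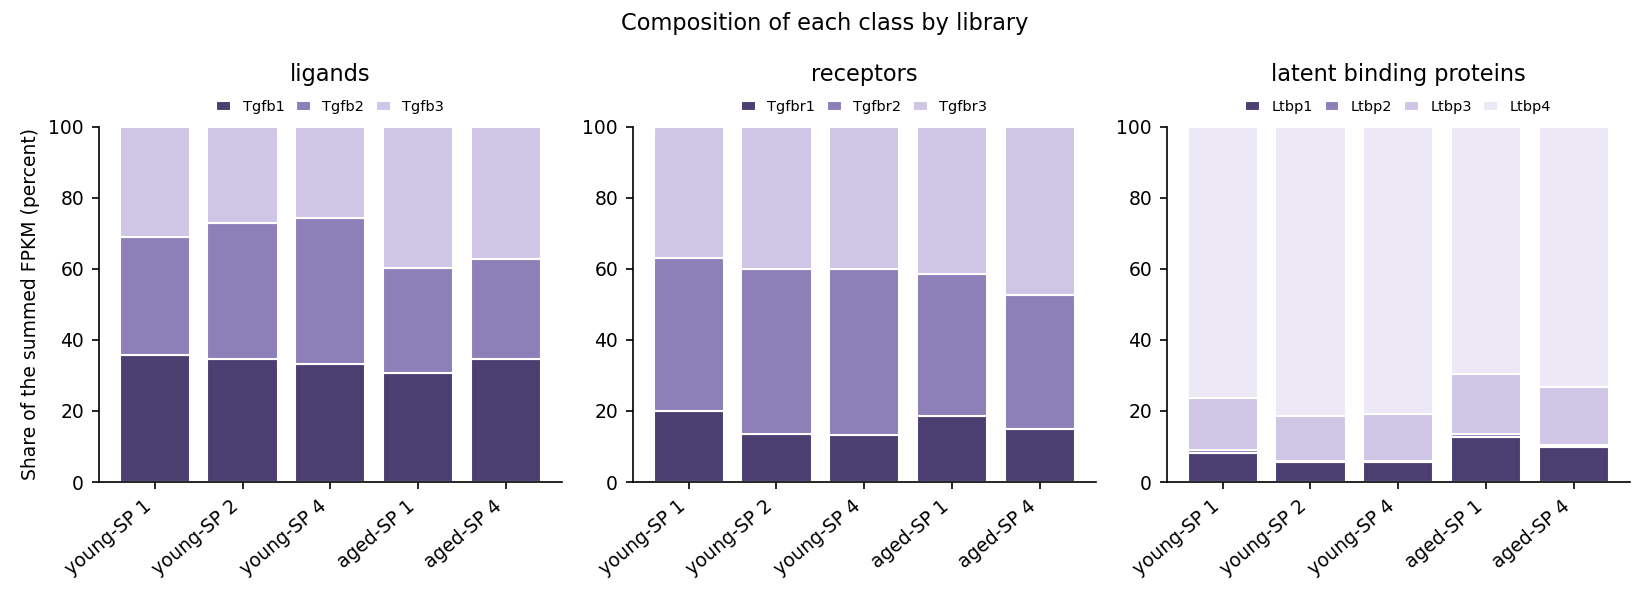
Share of each gene in the summed FPKM of its class (vertical axis, percent) in the 5 libraries, for ligands, receptors and latent binding proteins. The Tgfb3 segment takes 37.2% and 39.8% of the ligands after mating with aged males, against 25.6% to 31.1% in the young-SP group, and Ltbp4 takes most of the third class in every library.

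Among the receptors, Tgfbr3 (betaglycan, chromosome 5, 107106570 to 107289629) had the smallest p. It was counted 4645 and 5885 times in aged-SP replicates 1 and 4 and 3475, 3932 and 3794 times in young-SP replicates 1, 2 and 4, or 281 and 376 CPM against 217, 232 and 253 CPM. The groups did not overlap, although the aged-SP libraries differed from each other by more than the young-SP libraries did. The log2 fold change was 0.49 (standard error 0.15, 95% interval 0.11 to 0.87). The adjusted p was 0.187 by edgeR and 0.0827 by DESeq2. The fold change leaned on the aged-SP libraries unequally, at 0.26 on the log2 scale without replicate 4 of that group and 0.68 without its replicate 1. Without young-SP replicate 1 the log2 fold change was 0.42 (unadjusted p = 0.0519 and adjusted p = 0.226 by edgeR). Gm43422, on the same strand, shares 4.54% of the exon bases of Tgfbr3.

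Tgfbr1, the kinase that phosphorylates the receptor Smads, lies on chromosome 4 (47353222 to 47414931). It stood at 125 and 119 CPM in the aged-SP libraries and at 117, 77.7 and 83.3 CPM in young-SP replicates 1, 2 and 4. The aged-SP libraries lay above all of the young-SP libraries, but young-SP replicate 1 lay close to them. The log2 fold change was 0.40 (95% interval -0.08 to 0.87, adjusted p = 0.329 by edgeR), and without young-SP replicate 1 it was 0.59 (adjusted p = 0.0466 by edgeR). Leaving out another young-SP library lowered it, to 0.28 without replicate 2 (adjusted p = 0.585 by edgeR) and 0.32 without replicate 4 (adjusted p = 0.549 by edgeR). Tgfbr2, the ligand-binding kinase, lies on chromosome 9 (116084293 to 116175360) and overlapped between the groups, at 340 and 375 CPM in the aged-SP libraries and at 317, 338 and 368 CPM in the young-SP libraries. Its log2 fold change was 0.07 (95% interval -0.20 to 0.34, adjusted p = 0.767 by edgeR) and was -0.0037 without aged-SP replicate 4. In FPKM, Tgfbr3 exceeded Tgfbr2 in both aged-SP libraries (42.4 against 41.1, and 57.4 against 45.7) and was below it in all 3 young-SP libraries (33.0 against 38.4, 36.3 against 42.2, and 38.5 against 44.7). The summed receptor level was 102 and 121 FPKM in the aged-SP libraries and 89.1, 90.6 and 95.8 FPKM in the young-SP libraries (exact permutation test, p = 0.2).

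Ltbp1 was the LTBP with the clearest difference. Its protein, which joins the latent complex to fibronectin and fibrillin, is encoded on chromosome 17 (75005568 to 75392512), and its exons overlap no other gene. It was counted 3617 and 3283 times in aged-SP replicates 1 and 4, and 2424, 2099 and 2013 times in young-SP replicates 1, 2 and 4, or 219 and 210 CPM against 152, 124 and 134 CPM. Both aged-SP libraries lay well above the young-SP libraries, of which replicate 1 was the highest. The log2 fold change was 0.65 (standard error 0.11, 95% interval 0.37 to 0.93). Its adjusted p was 0.0829 by edgeR and 0.000385 by DESeq2. Without young-SP replicate 1 the fold change was 0.72 on the log2 scale (adjusted p = 0.0344 by edgeR), and over the alternatives the adjusted p ran from 0.000385 to 0.283.

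Ltbp1 has 2 annotated starts, which give a long and a short form of the protein, and the deposited count sums both. Their sequences are printed because the RNA difference cannot be assigned to either start from these counts. They are RefSeq sequences on GRCm38.p6 at chr17:75005279-75005578 and chr17:75178531-75178830 (both plus strand), with that of Ltbp2 at chr12:84876442-84876741 (minus strand) beneath them, and capitals mark the same motifs as above.
Ltbp1, upstream start: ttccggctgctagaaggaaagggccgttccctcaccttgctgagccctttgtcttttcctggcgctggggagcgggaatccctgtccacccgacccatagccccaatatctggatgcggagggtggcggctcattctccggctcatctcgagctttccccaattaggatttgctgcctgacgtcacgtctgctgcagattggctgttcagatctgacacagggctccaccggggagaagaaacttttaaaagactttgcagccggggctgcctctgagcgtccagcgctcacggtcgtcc
Ltbp1, downstream start: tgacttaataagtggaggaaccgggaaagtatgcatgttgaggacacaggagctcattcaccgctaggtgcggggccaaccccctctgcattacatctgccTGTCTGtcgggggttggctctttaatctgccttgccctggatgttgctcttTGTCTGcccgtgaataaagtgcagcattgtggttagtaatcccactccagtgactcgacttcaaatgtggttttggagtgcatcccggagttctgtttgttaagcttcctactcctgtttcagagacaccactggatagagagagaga
Ltbp2: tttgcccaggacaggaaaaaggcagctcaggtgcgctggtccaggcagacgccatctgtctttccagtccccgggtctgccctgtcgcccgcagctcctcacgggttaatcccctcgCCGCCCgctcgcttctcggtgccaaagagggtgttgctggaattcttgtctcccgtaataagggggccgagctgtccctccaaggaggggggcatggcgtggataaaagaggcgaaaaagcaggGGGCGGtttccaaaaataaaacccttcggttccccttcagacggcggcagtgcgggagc
The upstream start of Ltbp1 held 17 CG pairs and no match of the 3 motifs, while the downstream start held 7 CG pairs and 2 matches of the Smad element. Ltbp2 held 2 matches of the GC box and 20 CG pairs. A match describes these letters and is not evidence of a bound site.

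Ltbp2 (chromosome 12, 84783212 to 84876532), which unlike the other LTBPs does not couple to latent TGF-beta and is known from elastic fibers, had the largest fold change and the widest interval. It was counted 184 and 157 times in aged-SP replicates 1 and 4, and 159, 50 and 37 times in young-SP replicates 1, 2 and 4. In CPM this was 11.1 and 10.04 against 9.95, 2.96 and 2.47. Young-SP replicate 1 was therefore at the level of the aged-SP libraries and the other two far below it. The log2 fold change was 1.04 (standard error 0.62, 95% interval -0.51 to 2.60, adjusted p = 0.417 by edgeR), 1.95 without young-SP replicate 1 (adjusted p = 0.0236 by edgeR) and 0.71 without young-SP replicate 4. The antisense gene D030025P21Rik shares 9.34% of its exon bases.

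Ltbp3 (chromosome 19, 5740904 to 5758532), which couples to all 3 ligands, overlapped between the groups at 145 and 174 CPM in the aged-SP libraries and 134, 136 and 155 CPM in the young-SP libraries (log2 fold change 0.17, 95% interval -0.13 to 0.48, adjusted p = 0.490 by edgeR). Ltbp4 (chromosome 7, 27305136 to 27337692), which binds TGF-beta1 weakly and serves elastic fiber assembly, was counted 12240 and 15141 times in aged-SP replicates 1 and 4 and 13938, 18269 and 17683 times in young-SP replicates 1, 2 and 4. At 740 and 968 CPM against 872, 1080.0 and 1180.4 CPM the groups overlapped, since young-SP replicate 1 was below aged-SP replicate 4 (log2 fold change -0.29, 95% interval -0.74 to 0.16, adjusted p = 0.436 by edgeR). Without that young-SP library it was -0.42 (adjusted p = 0.218 by edgeR). Within the class, the share of Ltbp1 in the summed FPKM was 12.7% and 9.79% in the aged-SP libraries and 8.20%, 5.76% and 5.68% in the young-SP libraries. That of Ltbp4 was 69.5% and 73.2% against 76.5%, 81.3% and 80.9%. Neither share overlapped (exact permutation test, p = 0.2 for each), and the summed LTBP level did overlap, at 163 and 204 FPKM against 175, 210 and 224 FPKM (exact p = 0.4). By position, Ltbp4 lies 1.60 Mb from Tgfb1, and Ltbp2 lies 1.18 Mb from Tgfb3. In log2 fold change the pairs were at -0.29 and 0.21 in the first and 1.04 and 0.77 in the second.

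**Figure D3:**
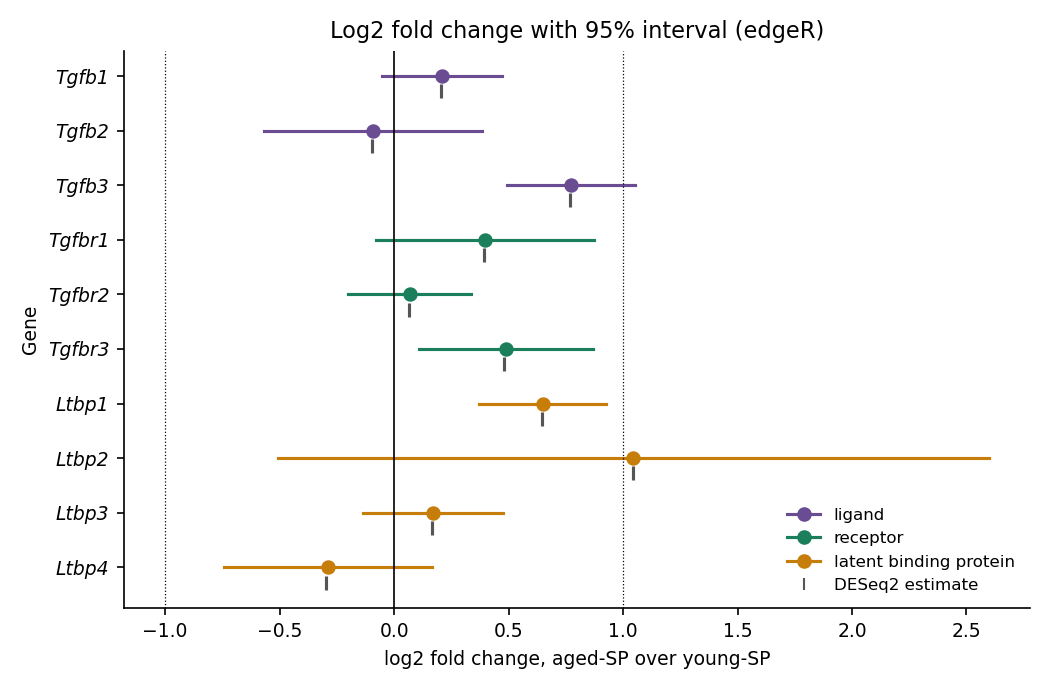
Log2 fold change of the aged-SP over the young-SP group with its 95% interval from edgeR (horizontal axis; dotted lines at 1 and -1), with the DESeq2 estimate as a tick under each line. The intervals of Tgfb3, Tgfbr3 and Ltbp1 lie above 0, and that of Ltbp2 runs from -0.51 to 2.60.

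**Figure D4:**
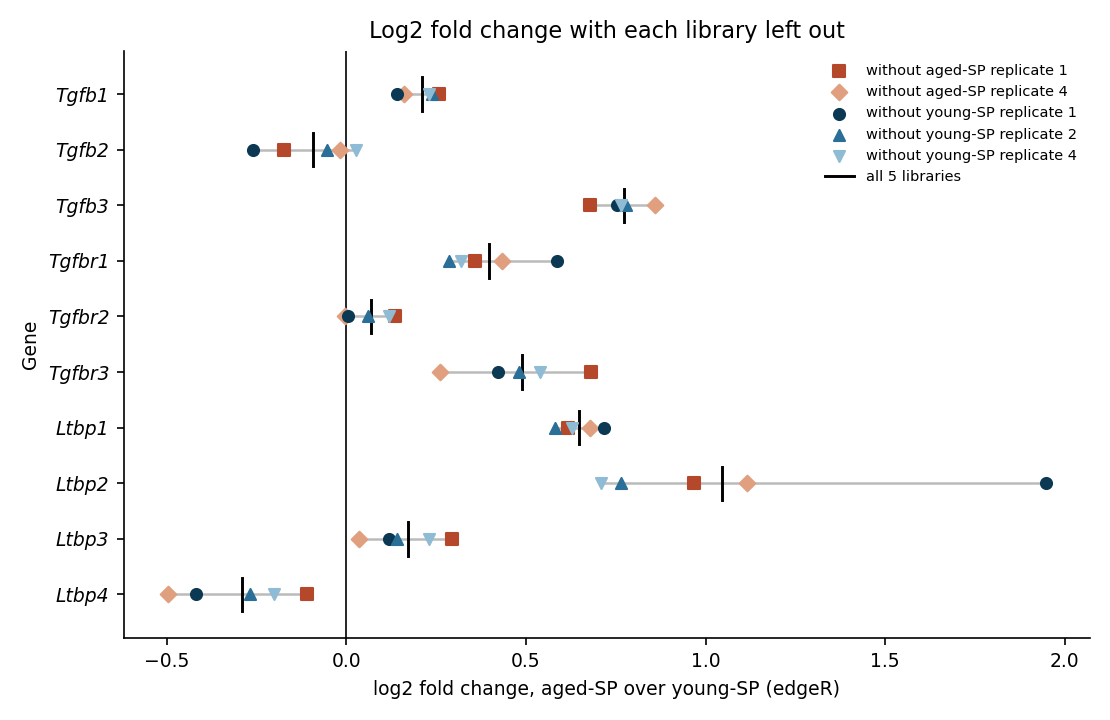
Log2 fold change (horizontal axis) of each gene with all 5 libraries (black tick) and with each library left out (symbols). Tgfb3 stays between 0.68 and 0.86 and Ltbp1 between 0.58 and 0.72, while Ltbp2 runs from 0.71 to 1.95 depending on which young-SP library is left out.

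Around the 10 genes, 63 further genes of the pathway were followed in 6 lists by role, and all 63 were tested. By edgeR 0 of the 63 were called, and limma-voom called 0. At an unadjusted p under 0.05 there were 11 higher and 11 lower. Of all tested genes, 9.62% were higher and 9.36% lower at that level (19% together). These shares are the background for each count at that level in the pathway, ontology and marker lists below. DESeq2 gave an adjusted p under 0.05 for 13 of them, 4 higher and 9 lower (background 3.69% and 3.89%), and 5 of these passed its fold threshold as well (background 3.6%). Higher by DESeq2 were Tgif1, Pmepa1, Lrrc32 and Itga11. Lower were Bambi, Fn1, Fbn1, Fbn2, Adam12, Col1a1, Col1a2, Col3a1 and Col5a1. The median log2 fold change over the 63 was 0.02.

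The transducers, which carry the signal from receptor to nucleus, lay close together. Of 9 genes, 4 were above 0 and 5 below, with a median of -0.02, and only Fkbp1a, which holds the type I receptor inactive, had an unadjusted p under 0.05 (log2 fold change -0.26, adjusted p = 0.224 by edgeR). Smad4, the common partner of the receptor Smads, had a log2 fold change of 0.09 and Zfyve9, which brings Smads to the receptor, of -0.15. Of the 10 inhibitors, 3 were higher and 1 was lower at an unadjusted p under 0.05. Tgif1, a corepressor of Smads, was at 79.2 ± 0.0546 and 43.9 ± 6.39 CPM (mean ± SD of the 2 aged-SP and the 3 young-SP libraries, here and below), log2 fold change 0.85 (adjusted p = 0.0760 by edgeR). Pmepa1, which traps receptor Smads and is itself induced by TGF-beta, was at 45.2 ± 4.57 and 23.0 ± 4.86 CPM, log2 fold change 0.98 (adjusted p = 0.0986 by edgeR), and Smurf1, a ubiquitin ligase for the receptors, had one of 0.41 (adjusted p = 0.150). The lower gene, named after its value was seen, was Bambi, a decoy receptor, at 16.3 ± 1.92 and 40.4 ± 15.5 CPM, log2 fold change -1.31 (adjusted p = 0.163 by edgeR and 0.00887 by DESeq2). Smad7, the feedback inhibitor of the receptors, was at 18.8 ± 1.76 and 18.6 ± 1.55 CPM. Of the 4 accessory receptors 0 reached an unadjusted p of 0.05. Cd109, a coreceptor that dampens the signal, had a log2 fold change of -0.73 and Tgfbr3l of 0.21.

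Among the 17 anchors and activators of the latent complex, 3 were higher and 3 lower at an unadjusted p under 0.05. Lower were matrix proteins to which LTBPs attach. Fibronectin (Fn1) was at 1211 ± 228 and 2316 ± 245 CPM, log2 fold change -0.94 (adjusted p = 0.0829 by edgeR). Fibrillin-1 (Fbn1) was at 179 ± 26.3 and 398 ± 83.2 CPM, log2 fold change -1.15 (adjusted p = 0.0905 by edgeR and 5.14e-05 by DESeq2), and Fbn2, named after its value was seen, had one of -0.83. Higher was Lrrc32 (GARP), which holds latent TGF-beta on the surface of regulatory T cells and endothelium, at 48.0 ± 7.05 and 33.4 ± 2.31 CPM (log2 fold change 0.52, adjusted p = 0.134 by edgeR). The other two, also named after their values were seen, were the integrin subunit Itgav (log2 fold change 0.65) and the membrane protease Mmp14 (log2 fold change 0.44). Of the 5 matrix proteins that bind TGF-beta, Vasn was higher at an unadjusted p under 0.05 (log2 fold change 0.44, adjusted p = 0.178 by edgeR), and Fmod had a log2 fold change of -0.95 with overlapping groups.

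Of the 18 genes known to respond to TGF-beta, 4 were higher and 6 lower at an unadjusted p under 0.05, and the median log2 fold change was -0.19. The lower genes included fibrillar collagens: Col1a1 was at 2640.5 ± 323 and 4936 ± 480.2 CPM, log2 fold change -0.90 (adjusted p = 0.0734 by edgeR), and Col3a1 had one of -0.86 (adjusted p = 0.0760). Adam12, a membrane protease of mesenchymal cells, was at 23.8 ± 5.39 and 115.6 ± 33.9 CPM, log2 fold change -2.28 (adjusted p = 0.0734 by edgeR). The higher genes, named after their values were seen, were the collagen-binding integrin Itga11 (log2 fold change 1.16), the cell cycle inhibitors Cdkn1a (0.67) and Cdkn2b, and the matrix protein Tgfbi (0.35), with adjusted p between 0.0760 and 0.216 by edgeR. Cdkn2b was rare: it was counted 75 and 26 times in aged-SP replicates 1 and 4, and 19, 4 and 11 times in young-SP replicates 1, 2 and 4. The early response gene Ctgf (log2 fold change -0.44, adjusted p = 0.713 by edgeR) overlapped between the groups. The summed level of the list was 13390.3 and 14968 CPM after mating with aged males, against 19396 to 24530.1 CPM in the young-SP group, most of it collagen. Stromal markers were lower in the same aged-SP libraries (values with the other cell types), and their part in this was not tested. Without young-SP replicate 1, edgeR called 8 of the 63 pathway genes, 6 of them lower (background 3.45%).

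**Figure D5:**
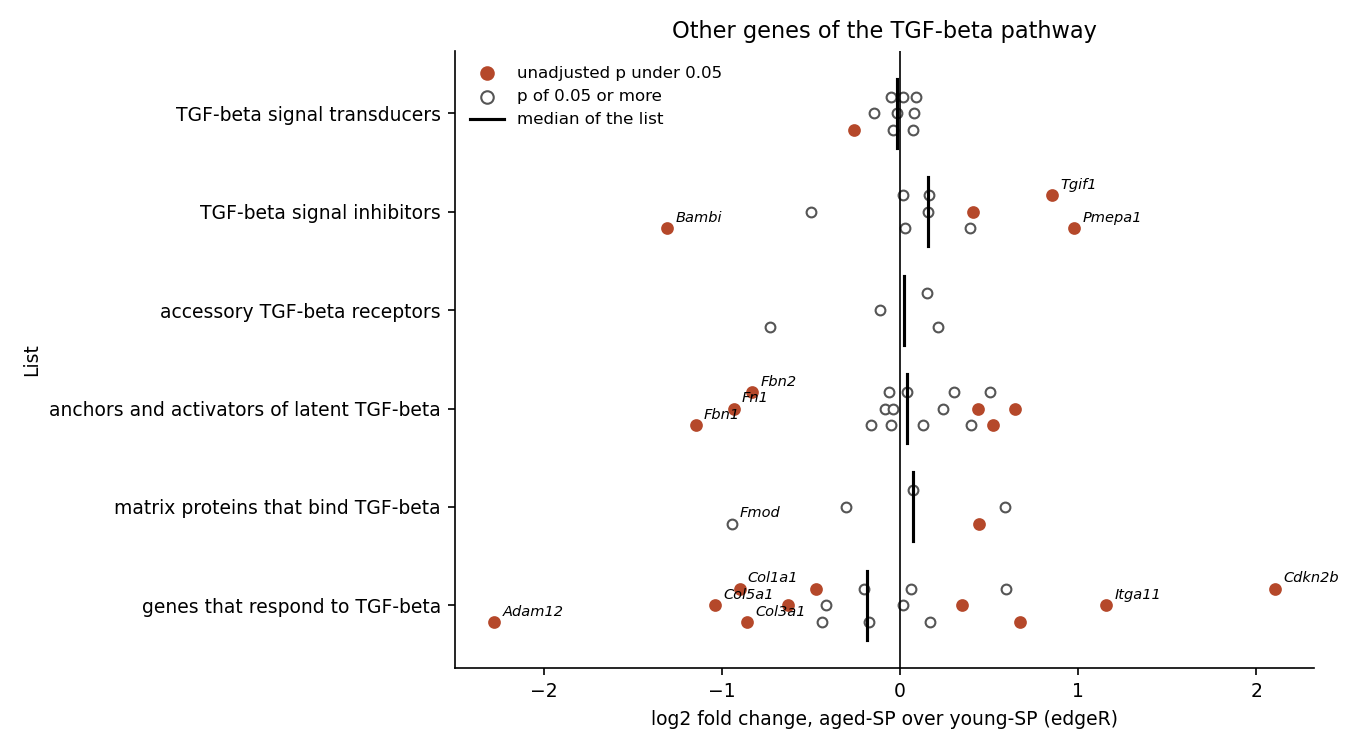
Log2 fold change (horizontal axis) of 63 further pathway genes in 6 lists by role; filled points have an unadjusted p under 0.05, open points do not, and the black line is the median of the list. The transducers lie close to 0, and the genes that respond to TGF-beta spread widely, from Adam12 at -2.28 to Cdkn2b on the far right.

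In the gene ontology terms of the deposited table, 7 of the 10 genes carry the term for TGF-beta binding, as do 15 others. Of the 13 of these that were tested, 10 had a log2 fold change above 0, where 50.9% of all tested genes did, and 3 were higher and 0 lower at an unadjusted p under 0.05. The median log2 fold change was 0.26. The term for the TGF-beta receptor signaling pathway is carried by 74 further genes, of which 58 were tested, 10 were higher and 7 lower at that level, and the median was 0.06.

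Whole uterus mixes cell types, and fewer cells of a type cannot be told apart from less RNA per cell. Markers of some cell types differed in level between the groups, and their part in the differences above was not tested. The 7 stromal markers were all below 0 (median log2 fold change -0.31), with 3 of 7 lower at an unadjusted p under 0.05, and had sums of 1868 and 2193 CPM after mating with aged males, against sums from 2273 to 3035 CPM in the young-SP group. The 5 gland markers summed to between 2927 and 4071 CPM in the aged-SP libraries and between 39.3 and 504.02 CPM in the young-SP libraries, with 504.02 in young-SP replicate 1. In the aged-SP libraries most of this was the proteases Prss28 and Prss29, which were counted 23923 and 40664 times in replicate 1 and 11943 and 33412 times in replicate 4, while the gland transcription factor Foxa2 overlapped, at 175 and 187 counts against 136, 239 and 174. The gland chemokine Cxcl15 went the other way and had the smallest p of the 5, at 48 and 30 counts against 139, 341 and 122 (log2 fold change -2.35, adjusted p = 0.116 by edgeR). Spink1 was counted 2536 and 191 times against 177, 183 and 116 times (log2 fold change 3.07, adjusted p = 0.184 by edgeR), with aged-SP replicate 1 far above the other libraries. The summed level of the 7 epithelial markers overlapped, at 1171 to 1204 CPM and 731 to 1474 CPM, and was highest in young-SP replicate 1. The epithelial markers did not share a pattern. Epcam set young-SP replicate 1 beside the aged-SP libraries, as Ltbp2 and Tgfbr1 did, with 4336 and 3681 counts for aged-SP replicates 1 and 4, and 4490, 1296 and 1304 for young-SP replicates 1, 2 and 4. Krt8 (3402 and 4658 against 6408, 3418 and 3566 counts) and Krt19 (1879 and 2554 against 3940, 2094 and 2779 counts) had that replicate above all the other libraries. Krt18 kept it with its own group (3775 and 3383 against 3053, 2648 and 2479 counts, adjusted p = 0.178 by edgeR). Summed levels also overlapped between the groups for markers of myometrium (6882 to 9020 against 6265 to 10451 CPM), endothelium (533 to 537 against 406 to 700 CPM), leukocytes (263 to 293 against 252 to 360 CPM), macrophages (484 to 763 against 399 to 792 CPM), T cells (14.0 to 18.7 against 15.8 to 19.8 CPM), and platelets and blood (103 to 186 against 84.2 to 210 CPM). The T cell sum hid opposite moves, each at an unadjusted p under 0.05. Cd3g was lower, at 75 and 44 counts against 158, 126 and 97 (log2 fold change -1.11, adjusted p = 0.166 by edgeR). Il2ra was higher, at 43 and 43 counts against 20, 25 and 20 (log2 fold change 0.98, adjusted p = 0.145 by edgeR). In the endothelial list, 1 marker was lower at an unadjusted p under 0.05. Of the 5 dendritic cell markers, 1 was higher at an unadjusted p under 0.05 and the sum was 45.2 to 48.6 CPM against 37.5 to 42.1 CPM. These markers did not share a direction, with 3 above 0 and 2 below. Above 0 were Batf3 (log2 fold change 0.71, adjusted p = 0.207 by edgeR), the 1 with an unadjusted p under 0.05, Itgax (0.49) and Ccr7 (1.37). Ccr7 overlapped between the groups, at 63 and 27 counts against 34, 6 and 11 (adjusted p = 0.387 by edgeR). Flt3 was lower without overlap, at 53 and 52 counts against 55, 77 and 62 (log2 fold change -0.31), and Zbtb46 was at -0.0079. Markers of ovary (35.8 to 70.9 against 21.5 to 42.5 CPM) and oviduct (108 to 149 against 50.2 to 252 CPM) overlapped as well.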

How the data were processed

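RNA of whole uteri was sequenced in 5 libraries, 2 of the aged-SP and 3 of the young-SP group, as the sample labels name them. After filtering, reads were aligned by the authors with HISAT2 2.1.0, and the deposited table gives a raw count per gene (HTSeq 0.6.0 and Bowtie2 2.2.3 are also named in the submitters' processing notes). The deposited FPKM values are these counts divided by the gene's length and the library's total, which was checked on the values of the 10 genes, and served for levels between genes and shares within a class. The deposited table also holds the mean of the scaled counts as a signal over all libraries, and the authors' own fold ratio, log2 fold change, p-value and adjusted p-value per gene from DESeq2, none of which was used. There were 0 columns with values per sample left unused.

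Genes were kept by filterByExpr, scaled by TMM and tested with glmQLFit and glmQLFTest (two-sided) in edgeR 4.0.16 with R 4.3.3, on the whole table, with Benjamini-Hochberg adjustment. Standard errors are the log2 fold change over the root of the F statistic, and intervals are 95%. The common dispersion was 0.0629, a coefficient of variation of 25.1% between libraries of a group. DESeq2 1.42.0 and limma 3.58.1 (voom) were alternatives, beside other scalings, other filters and each library left out. A further alternative was a replicate block over the libraries numbered 1 and 4, without young-SP replicate 2. The depth of 15071914 to 16728601 counts per library bears on counting error alone, as the sources used here name no molecular identifiers. Shares and sums were compared with exact permutation tests. Promoter sequences are from RefSeq on GRCm38.p6, gene positions those of the deposited table (GRCm38), and overlaps are from GENCODE M21.

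The 10 genes, the lists and the tests were chosen with earlier results of these data known. Named are the 10 genes, and from each pathway list the called genes and the 3 with the smallest p (2 for lists under 6 genes); any other gene named, markers included, was chosen after its values were seen. The ontology terms and the DESeq2 count without a fold threshold were added after the data were seen. Markers were listed for epithelium, stroma, glands, endothelium, myometrium, T cells, dendritic cells, macrophages, all leukocytes, platelets and blood, and for ovary, oviduct, adipose tissue, vagina and cervix. The sample that the paper set aside was not analysed here.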

Additional observations from a re-analysis of the deposited data

How the results depend on the processing

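Of the 10 genes, 8 kept their direction under all 12 alternatives; Tgfbr2 was at -0.0037 without aged-SP replicate 4 and Tgfb2 at 0.027 without young-SP replicate 4 (and from -0.26 upward with another library left out). With each library left out, the genes called among all tested ranged from 1 to 578 (25 with all 5), among the 10 from 0 to 1 (Ltbp2, without young-SP replicate 1) and among the 63 pathway genes from 0 to 8, and 2 to 5 of the 10 had an unadjusted p under 0.05 (5 without young-SP replicate 1). All tested genes called were 632 with DESeq2, 203 without a filter on low counts and 2 with the replicate block. The block fit used only the libraries numbered 1 and 4, so it left out young-SP replicate 2. Leaving out that library with no block gave 3. The pathway genes called were 5 with DESeq2 and 3 without a filter. With DESeq2 and no fold threshold, 1330 of all genes, 2 of the 10 and 13 of the 63 passed. The cause of these moves was not tested, beyond the fewer libraries of the block fit and of the fits that leave one out. In differences of the aged-SP from the young-SP group, the Tgfb1 share ranged from -4.01 to 0.025 percentage points and the summed LTBP level from -40.2 to 1.01 FPKM with a library left out, positive in each case without aged-SP replicate 1, where the single aged-SP library left is assumed to vary like the others. The replicate numbers 1 and 4 occur in both groups, and deviations from the group means correlated at 0.15 and 0.14 over genes, but 2 pairs with no stated origin do not pair the libraries, and the block changed no call among the 10. The median log2 fold change of tested genes was 0.0072, and it lay between -0.0063 and 0.0085 under the other scalings and filters and between -0.015 and 0.012 under all alternatives. With 2 libraries in the aged-SP group, a p that misses the threshold does not show equal levels.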
